A study of Mus musculus with 2 samples.

Results

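Lysosomal enzymes and membrane proteins were described in mouse hearts 3 days after myocardial infarction (MI). The members were 36 genes taken by name, and all 80 probe sets annotated with 1 of these symbols alone were used, of 45101 probe sets on the array, which named 18193 genes in all. These probe sets covered 35 of the 36 genes. For Cd63, which encodes a tetraspanin of late endosomes, 0 probe sets had it as their single symbol, and it was not analysed here. The infarct group held C57BL/6J males aged 10 weeks whose left anterior descending coronary artery had been tied off permanently, and the sham group held males of the same strain and age that had the same operation without the tie. RNA from 3 whole hearts was mixed in each group and hybridised to 1 array, so that 1 sham pool is set against 1 infarct pool. With 1 array on each side there is no replicate spread to test against, and every value describes these 2 pools only. Infarcted and remote muscle were not separated.

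Lysosomes break down proteins, glycans and lipids that reach them from outside the cell or by autophagy, at the acid pH kept by the vacuolar proton pump (V-ATPase). Phagocytes such as macrophages are rich in them, and cardiomyocytes use them to turn over their own organelles and glycogen. Many lysosomal genes share a short promoter element bound by the transcription factor TFEB, which is held in the cytoplasm by the kinase complex mTORC1 while nutrients are plentiful.

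Values are log2 values after RMA, which corrects background, normalises the arrays against each other and gives each probe set 1 value. Differences are infarct minus sham, so that 1 stands for 2-fold. A gene with several probe sets was represented by the one with the highest mean, and it was compared where that value was at or above the array median (6.36) in 1 pool or both. By this rule 34 of the 35 genes were compared, of 11961 genes in all. Gla passed through the infarct pool alone, and Atp6v0d2 did not pass. Within a gene, the differences of its probe sets had an SD of 0.23, over 5191 genes with at least 2 such probe sets. Among the 19 lysosomal genes with at least 2 of them, this SD was 0.24. It covers the probes and not the mice.

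In the infarct pool, 7 of the 34 lysosomal genes were at least 2-fold higher than in the sham pool and 0 were 2-fold lower. This share of 20.6% stands beside a background of 3.73% of all genes compared that were at least 2-fold higher, and of 1.26% that were at least 2-fold lower. The members were chosen with earlier results of these data known, so the share describes this list and not lysosomal genes at large. The 7 genes were Cd68, Ctsz, Lgmn, Gla, Gusb, Laptm5 and Ctss. Where both pools had to reach the array median, a filter chosen after seeing the data, Gla dropped out and 6 of 33 genes were 2-fold higher, against 3.11% of 11308 genes. Their differences ran from 1.01 to 1.24, and 0 of the 34 reached the threshold of 1.4 used in the study, against 1.49% of all genes. In total, 29 of the 34 genes lay above 0, where 49.5% of all genes did. The median difference was 0.29, against 0.00 for all genes compared. Among all genes compared, 10 of the 34 were higher in their difference than 90% of genes and 2 lay in the lowest 10%. Counted by probe set, 9 of 80 (11.2%) were at least 2-fold higher, against 2.23% of all named probe sets.

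Where zero is set decides some of these directions. The 8 (of 12 listed) measured housekeeping genes, from which Gusb was left out as a member, averaged 0.38 above their sham values after infarction, with single genes from 0.0099 (Tbp) to 0.82 (Actb, whose other bright probe set gave -0.62). The spiked-in hybridisation controls averaged 0.32 below theirs. Centring on the former would put 16 of the 34 genes above 0, beside 18.0% of all genes, and 0 at 2-fold, beside 1.59% of all genes. The median would be -0.09, beside -0.38 for all genes. Centring on the latter would put 32 above 0, beside 81.9% of all genes, and 9 at 2-fold, beside 8.04%. The median would be 0.60, beside 0.32 for all genes. Since such a centring moves every gene alike, the lysosomal genes kept a median 0.29 above that of all genes. Directions below refer to the deposited scale. A difference between 0 and 0.38 turns negative on the housekeeping scale, and one between -0.32 and 0 turns positive on that of the hybridisation controls.

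**Figure D1:**
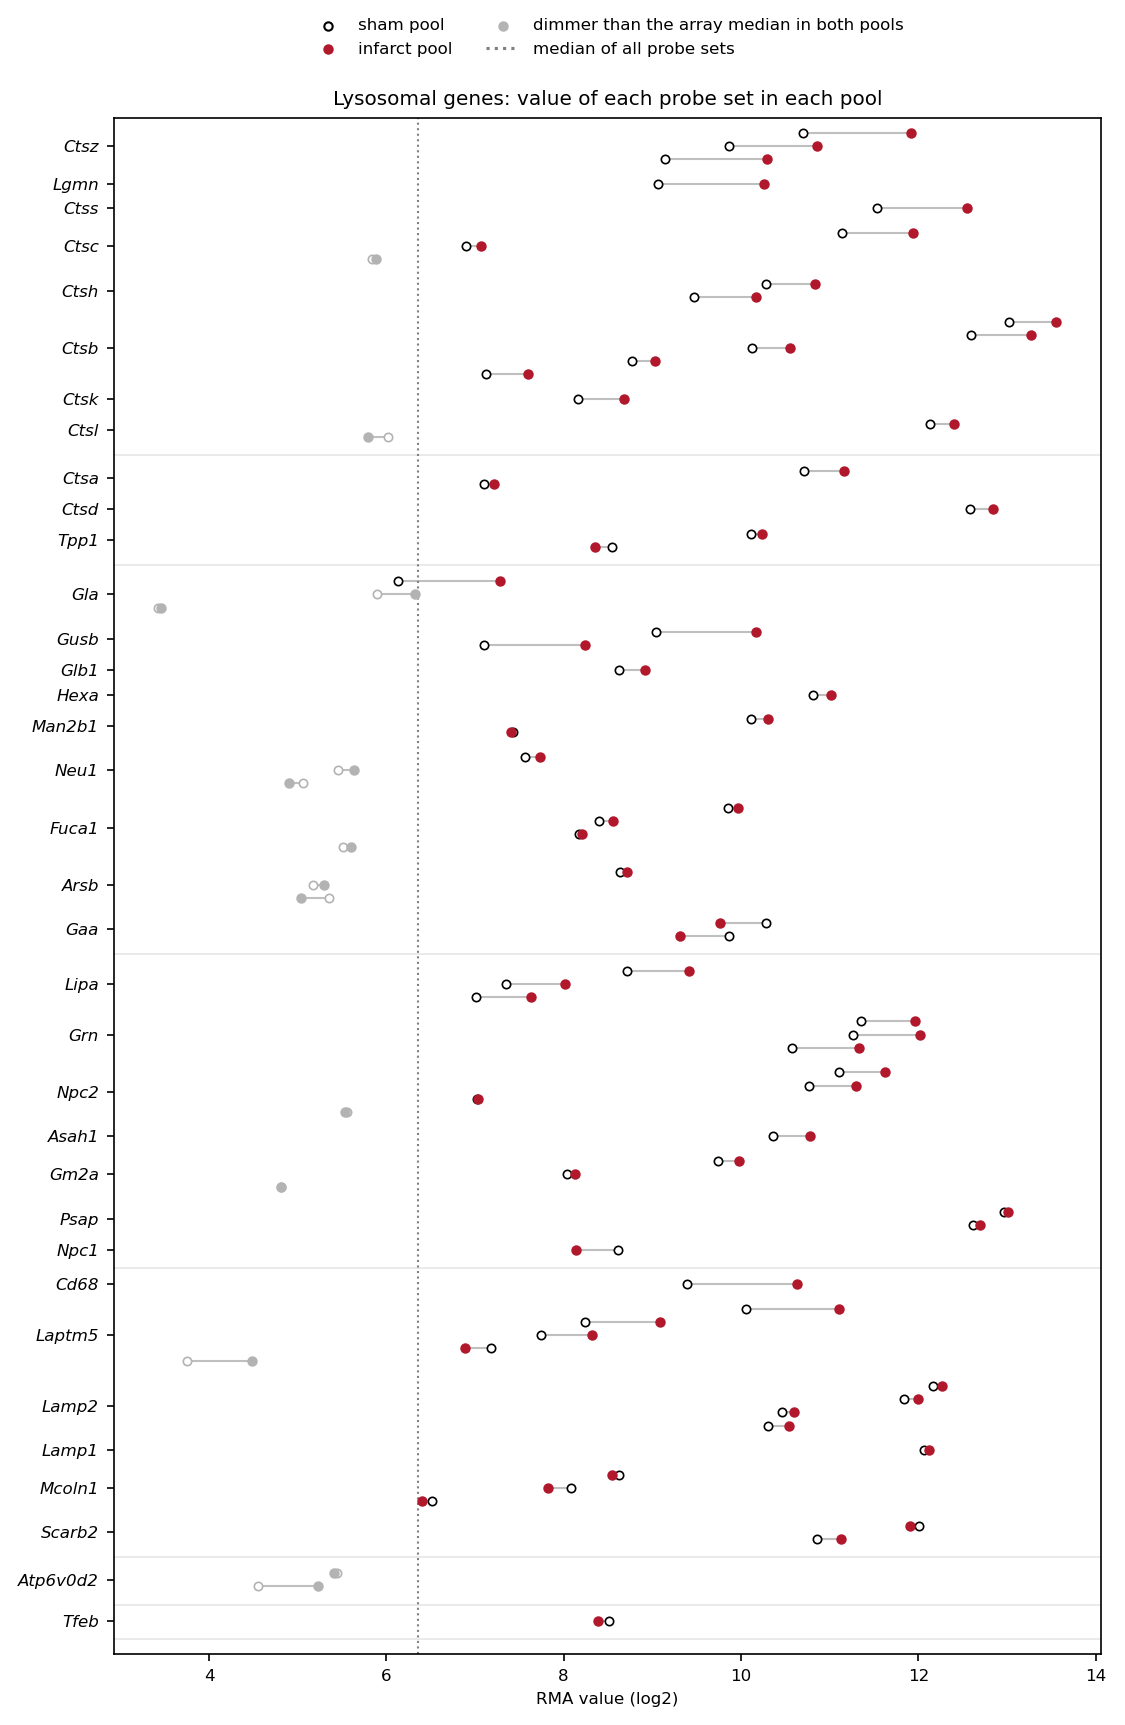
Log2 RMA value of each of the 80 probe sets for sham (open circles) and infarct (red), grouped by gene and by role, with 1 line per probe set and probe sets dimmer than the array median (dotted line, 6.36) in both pools in grey. All 3 probe sets of Ctsz and both of Gusb lay further to the right in the infarct pool, while both of Gaa and the only one of Npc1 lay further to the left.

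Cd68, which encodes a heavily glycosylated membrane protein of macrophage lysosomes, had the highest difference of the list. Its only probe set read 9.39 in sham and 10.63 in infarct hearts, 2.36-fold higher, and 252 of all 11961 genes had a larger difference. Ctsz encodes cathepsin Z, a carboxypeptidase that trims proteins from their end. Its brightest probe set read 10.70 in sham and 11.92 in infarct hearts (difference 1.22). Its other probe sets differed by 0.99 and 1.15, so that the 3 readings of Ctsz agreed within the spread between probe sets. Lgmn encodes legumain, which cuts after asparagine and activates other cathepsins. It read 9.06 in sham and 10.25 in infarct hearts (2.29-fold), again from 1 probe set.

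The promoters of these 3 genes and of Gaa, the gene with the lowest difference, are shown because these genes mark the ends of the range. Each is the stretch of 250 bases before an annotated start site, written from 5′ to 3′ on the strand of the gene, from RefSeq on the build GRCm38.p6. Capitals mark the E-box CACGTG, the core of the element bound by TFEB, and the ETS-type motif GAGGAA on either strand, the core bound by PU.1, a factor of myeloid cells. Lgmn has another annotated start, whose window held neither motif.
Cd68, chr11:69666171-69666420, minus strand: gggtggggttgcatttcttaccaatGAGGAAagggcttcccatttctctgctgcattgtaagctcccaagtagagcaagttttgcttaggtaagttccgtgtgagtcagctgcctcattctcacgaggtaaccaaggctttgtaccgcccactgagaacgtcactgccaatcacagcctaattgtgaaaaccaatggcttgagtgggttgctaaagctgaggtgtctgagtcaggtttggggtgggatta
Ctsz, chr2:174439040-174439289, minus strand: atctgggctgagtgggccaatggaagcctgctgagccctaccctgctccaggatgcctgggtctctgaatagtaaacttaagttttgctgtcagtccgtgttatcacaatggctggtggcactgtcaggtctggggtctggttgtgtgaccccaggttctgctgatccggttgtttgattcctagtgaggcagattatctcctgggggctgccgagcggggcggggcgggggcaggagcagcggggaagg
Lgmn, chr12:102439093-102439342, minus strand: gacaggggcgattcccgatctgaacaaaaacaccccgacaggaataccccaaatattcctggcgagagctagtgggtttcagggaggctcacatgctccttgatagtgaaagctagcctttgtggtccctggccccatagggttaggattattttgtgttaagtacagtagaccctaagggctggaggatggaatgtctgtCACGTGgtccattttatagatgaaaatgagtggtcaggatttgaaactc
Gaa, chr11:119267713-119267962, plus strand: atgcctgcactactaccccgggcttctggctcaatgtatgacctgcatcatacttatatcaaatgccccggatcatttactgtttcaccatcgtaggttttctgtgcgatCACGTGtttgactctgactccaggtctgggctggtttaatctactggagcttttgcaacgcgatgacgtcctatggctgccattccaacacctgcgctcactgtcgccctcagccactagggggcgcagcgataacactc
Cd68 has an ETS-type motif and no E-box in this stretch, Lgmn and Gaa have an E-box each, and Ctsz has neither.

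The other cysteine cathepsins had higher values after infarction too, mostly by less. All 8 genes of this role, legumain included, lay above 0 (7 on the housekeeping scale), and their median difference was 0.68. Ctss, the cathepsin that antigen-presenting cells use to degrade the invariant chain of MHC class II, read 11.53 in sham and 12.54 in infarct hearts, a difference of 1.01 that only just reached 2-fold. Ctsc encodes dipeptidyl peptidase I, which activates the serine proteases of leukocyte granules. Its brightest probe set read 11.14 in sham and 11.94 in infarct hearts (0.80), but another that was bright enough differed by only 0.17, and the mean over its probe sets was 0.34. Ctsb, an abundant cathepsin of most cell types, was measured by 5 probe sets, all brighter than the array median. Their differences ran from 0.27 to 0.68, and the brightest read 13.03 in sham and 13.56 in infarct hearts (0.53). Every probe set of Ctsb was therefore higher in the infarct pool. Ctsh, an aminopeptidase, differed by 0.55 and 0.69 on its probe sets. Ctsk, the collagen-degrading cathepsin of osteoclasts, which is also made by fibroblasts, read 8.16 in sham and 8.68 in infarct hearts (0.52). Lowest of this role was Ctsl, a broad endopeptidase of most cell types, with 12.13 in sham and 12.41 in infarct hearts (0.28, or -0.10 on the housekeeping scale).

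The lysosomal proteases of other classes differed less. Ctsa encodes the serine carboxypeptidase that also protects β-galactosidase and neuraminidase in a complex, and it read 10.71 in sham and 11.16 in infarct hearts (0.45). Its dimmer probe set differed by 0.11. Ctsd, the main aspartic protease of lysosomes, read 12.58 in sham and 12.85 in infarct hearts (0.26, or -0.11 on the housekeeping scale). For Tpp1, a tripeptidyl peptidase whose loss causes a neuronal ceroid lipofuscinosis, the probe sets disagreed in direction, at 0.12 and -0.19.

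**Figure D2:**
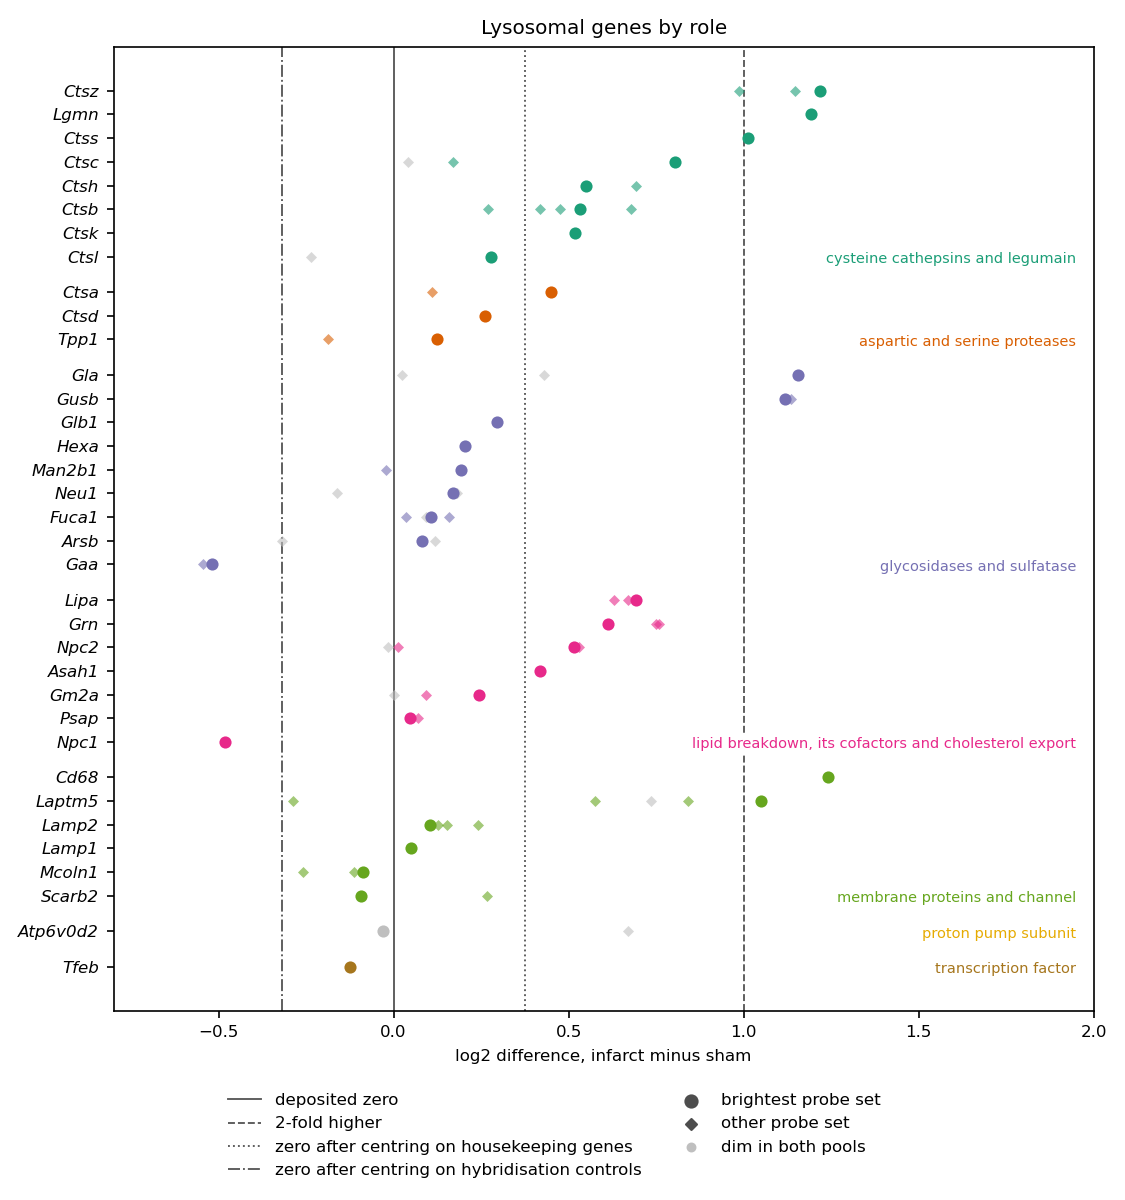
Log2 difference (infarct minus sham) of each probe set of the lysosomal genes by role, with large circles for the brightest probe set of a gene, diamonds for its others and grey for those dimmer than the array median in both pools. Lines mark the deposited zero, the 2-fold threshold, and where zero would lie if set by housekeeping genes (0.38) or by hybridisation controls (-0.32): by the brightest probe set of each gene, the cysteine cathepsins lie from 0.28 to 1.22, and 6 of the 9 glycosidases and sulfatase lie between 0 and 0.38.

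Among the 9 enzymes that remove sugars or sulfate, 2 stood apart from the others and 1 lay on the other side of 0. Gusb encodes β-glucuronidase, which degrades glycosaminoglycans and is often used as a reference gene. It read 9.05 in sham and 10.17 in infarct hearts (1.12), and its other probe set differed by 1.14, so that both of its probe sets passed 2-fold. Gla encodes α-galactosidase A, the enzyme missing in Fabry disease. Its brightest probe set read 6.13 in the sham pool, under the array median, and 7.29 in the infarct pool (1.15), and the other 2, dimmer than that median in both pools, differed by 0.43 and 0.03. The size of the difference of Gla therefore rests on 1 probe set with little signal in the sham pool.

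Gaa encodes acid α-glucosidase, which breaks down glycogen in lysosomes and whose loss causes Pompe disease. It had the lowest difference of the 34 genes. Its brightest probe set read 10.28 in sham and 9.77 in infarct hearts (-0.52, 1.43-fold lower), and the other read 9.86 and 9.32 (-0.55). Both stayed below 0 on every scale, at -0.20 after centring on the hybridisation controls for the brightest. Only 8.14% of all genes had a lower difference than Gaa. The remaining 6 genes of this role lay between 0.08 and 0.29 at their brightest probe set, and all 6 turn negative on the housekeeping scale. In order, these were Glb1, β-galactosidase (0.29), Hexa, a subunit of β-hexosaminidase (0.20), Man2b1, a lysosomal α-mannosidase (0.19), Neu1, a neuraminidase (0.17), Fuca1, a fucosidase (0.11), and Arsb, arylsulfatase B (0.08). Neighbours in this order lie closer together than the SD between probe sets. The median of the 9 genes was 0.19, and -0.18 on the housekeeping scale.

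Genes of lipid breakdown and cholesterol export went both ways. Lipa encodes lysosomal acid lipase, which frees cholesterol and fatty acids from lipoprotein lipids, and its 3 probe sets differed by 0.63 to 0.69. The brightest of them read 8.72 in sham and 9.41 in infarct hearts. Grn encodes progranulin, a secreted and lysosomal protein of macrophages among other cells, and it read 11.35 in sham and 11.96 in infarct hearts (0.61), with 0.76 and 0.75 on its other probe sets. For both genes, each probe set lay well above 0, and each value is also above 0 on the housekeeping scale. Npc2, the soluble protein that takes cholesterol to the lysosomal membrane, read 11.11 in sham and 11.63 in infarct hearts (0.52). By contrast, its membrane partner Npc1, which exports that cholesterol, read 8.62 in sham and 8.14 in infarct hearts (-0.48). The partners of cholesterol export thus differed in opposite directions, and Npc1 stayed below 0 on every scale (-0.16 after centring on the hybridisation controls). Npc1 has 1 probe set, and of the 4 of Npc2 the dimmer 2 differed by only 0.01 and -0.02.

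Asah1 encodes acid ceramidase and read 10.36 in sham and 10.78 in infarct hearts (0.42). Gm2a, the activator protein with which β-hexosaminidase degrades the ganglioside GM2, differed by 0.25. Psap encodes prosaposin, the precursor of the saposins that other lipid hydrolases need, and its probe sets differed by 0.05 and 0.07, with 12.96 in sham and 13.01 in infarct hearts. The 7 genes grouped in this role, Grn among them, had a median of 0.42, which was 0.04 on the housekeeping scale. A median without Grn was not computed.

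Of the 6 membrane proteins compared, Cd68 and Laptm5 were at 2-fold and 4 lay above 0, with a median of 0.08 (-0.30 on the housekeeping scale) and a mean of 0.38. Lamp1, the most used marker of lysosomes, read 12.07 in sham and 12.12 in infarct hearts (0.05). Lamp2, which autophagosomes need to fuse and whose loss causes Danon cardiomyopathy, differed by 0.10 to 0.24 over 4 probe sets, with 12.16 in sham and 12.27 in infarct hearts at the brightest. Scarb2 encodes LIMP-2, the receptor that carries glucocerebrosidase to lysosomes, and its probe sets gave -0.09 and 0.27. Mcoln1 encodes the calcium channel TRPML1, and its 3 probe sets lay between -0.26 and -0.09. All values of these 4 genes change sign under at least 1 of the centrings.

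Laptm5, a lysosomal membrane protein of leukocytes, read 10.06 in sham and 11.11 in infarct hearts at its brightest probe set (1.05). Its 5 probe sets were the least uniform of the list. Those that were bright enough differed by 1.05, 0.84, 0.58 and -0.29. The last of these is the only one whose identifier does not end in _x_at or _s_at, marks of probe sets that can bind several transcripts. The count of 7 genes at 2-fold is 6 without such probe sets.

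The proton pump subunit of the list was too dim to be counted. Atp6v0d2, an alternative subunit of the V-ATPase known from osteoclasts and macrophages, was dimmer than the array median in both pools, with 5.44 in sham and 5.41 in infarct hearts, and its other probe set read 4.56 and 5.23 (0.67). No difference of Atp6v0d2 was therefore counted. Tfeb, the transcription factor of the list, read 8.51 in sham and 8.39 in infarct hearts (-0.12, or 0.19 after centring on the hybridisation controls), from 1 probe set. Its mRNA level says nothing about whether the protein is in the nucleus.

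The E-box was searched for in the promoters of the list. RefSeq windows of 300 bases, 250 before and 50 after a start site, were at hand for 31 of the 36 genes (36 windows), and not for Ctsb, Ctsh, Asah1, Npc1 and Atp6v0d2. In 9 of these windows (25.0%) there was at least 1 CACGTG, against 7.15% of all 32851 windows. With a T before it on either strand (TCACGTG, which contains the former), the counts were 8 of 36 (22.2%) and 3.77%. For the longer forms GTCACGTG and TCACGTGA, they were 7 (19.4%, all windows 2.25%) and 4 (11.1%, all windows 0.974%). The search covered both strands. Each window with a longer form is also among the 9 with CACGTG. The element is already known from many lysosomal genes, so these shares are not a test of it. The windows held 16 E-boxes in 9 genes, of which Lamp1 alone had 4 within its last 61 bases. Those of Lgmn and Gaa stand in the promoters printed above, and the E-box nearest to the start on its upstream side is shown here for the others, with 10 bases on each side and the E-box in capitals, since these are the sequences on which the count rests.
Lamp1, chr8:13159136-13159161, plus strand: gtgaccacatCACGTGcggaacggag
Ctsa, chr2:164833751-164833776, plus strand: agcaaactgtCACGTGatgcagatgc
Mcoln1, chr8:3500464-3500489, plus strand: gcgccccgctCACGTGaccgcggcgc
Glb1, chr9:114401020-114401045, plus strand: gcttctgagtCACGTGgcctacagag
Ctsd, chr7:142387910-142387935, minus strand: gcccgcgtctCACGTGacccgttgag
Gla, chrX:134601184-134601209, minus strand: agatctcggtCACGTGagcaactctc
Ctsl, chr13:64370741-64370766, minus strand: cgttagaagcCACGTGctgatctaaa
All of these except that of Ctsl also match TCACGTG on the strand shown.

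Genes with an E-box lay over the whole range of differences. They ran from Gaa (-0.52) to Lgmn (1.19), with a median of 0.28, and 2 of the 7 genes at 2-fold, Lgmn and Gla, were among them. The ETS-type motif GAGGAA was in 15 of the 36 windows (41.7%), against 28.3% of all windows. The 14 of these genes with a value ran from 0.05 (Psap) to 1.24 (Cd68). Of the 7 genes at 2-fold, 5 had it: Cd68, Gla, Gusb, Laptm5 and Ctss. Gla, bright in the infarct pool alone, is counted for both motifs. Its longer form GAGGAAGT was in 4 windows (11.1%, all windows 3.20%), those of Ctss, Gusb, Gla and Ctsc. A match to TGACTCA, the motif of AP-1, was in 4 windows (11.1%, all windows 5.20%). These matches describe letters in the windows, and binding was not measured.

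**Figure D3:**
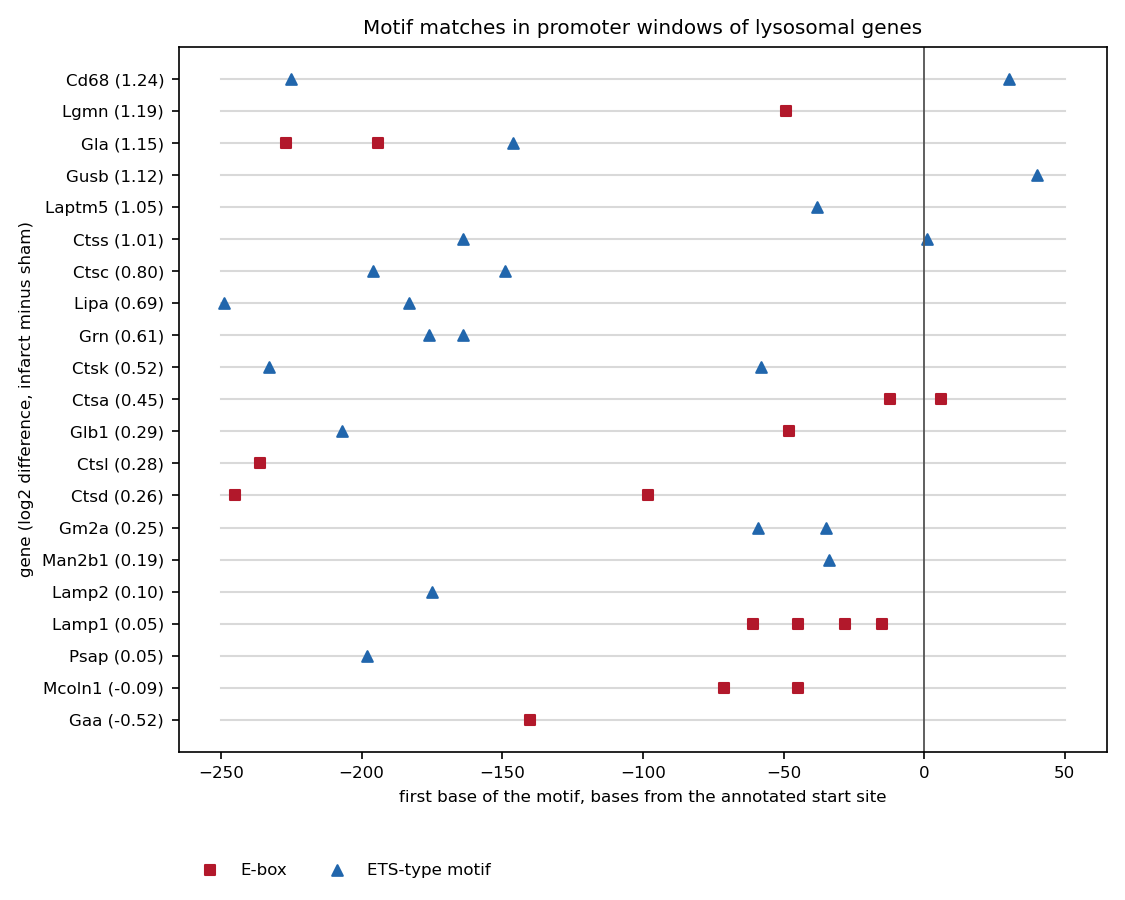
Position of each E-box (CACGTG, red squares) and each ETS-type motif (GAGGAA on either strand, blue triangles) in the promoter windows of lysosomal genes that hold at least 1 of them, by distance in bases from the annotated start site, with genes ordered by their log2 difference (in brackets). The 4 E-boxes of Lamp1 (0.05) lie close to the start, and the ETS-type motif occurs in 5 of the 7 genes at 2-fold. Ctsz (1.22), which is 1 of these 7, has neither motif and is not drawn. Cd63, whose window holds the ETS-type motif, has no difference here and is not drawn either. The motifs were chosen after the values were seen.

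Other lysosomal genes had lower medians than the 34 genes, a difference between lists that was not tested. None of 28 other lysosomal hydrolases was 2-fold higher or lower, and their median was 0.04 (15 above 0), or -0.33 on the housekeeping scale. Largest among them were Acp5, the tartrate-resistant acid phosphatase of osteoclasts and macrophages (6.82 in sham and 7.71 in infarct hearts, 0.89), Ctsf, cathepsin F (9.24 and 8.37, -0.87), and Galns, a sulfatase of keratan sulfate (7.66 and 8.37, 0.71). Ctsf had a lower difference than any of the 34 genes. Among 25 other membrane proteins and transporters (median -0.01, or 0.31 by the hybridisation controls), Gpnmb, a glycoprotein of phagocytes, was the only one at 2-fold (8.53 and 9.66, 1.14), followed by the metal transporter gene Slc11a1 of phagosomes (7.90 and 8.83, 0.93) and the cation channel gene Tpcn2 (6.41 and 7.27, 0.87).

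The other V-ATPase subunits had a median of 0.22, with 10 of 16 above 0, and on the housekeeping scale of -0.16 with 6 above 0. Tcirg1, the a3 subunit of osteoclasts and macrophages, read 7.88 in sham and 8.88 in infarct hearts, a difference of 0.996. Atp6v1a, the catalytic subunit, differed by 0.86, and Atp6v1h by 0.79, or 0.28 on its other probe set. For the tagging and sorting of lysosomal enzymes by mannose 6-phosphate, 0 of 10 genes reached 2-fold and the median was 0.07, which turns negative on the housekeeping scale. The sorting receptor gene Sort1 differed by -0.52, the mannose 6-phosphate receptor gene M6pr by 0.45 and Gnptg, a subunit gene of the tagging phosphotransferase, by -0.30. The relatives of TFEB and the mTORC1 machinery at the lysosome had a median of -0.12 over 18 genes (0.20 by the hybridisation controls), of which 13 were lower in the infarct pool, where 49.9% of all genes were, and 0 reached 2-fold. By the hybridisation controls 6 were lower, beside 18.1% of all genes. Lowest were Rragd, a GTPase that recruits mTORC1 (-0.74), and Mitf, a relative of Tfeb (-0.64), followed by Tsc2, an inhibitor of mTORC1 (-0.47).

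**Figure D4:**
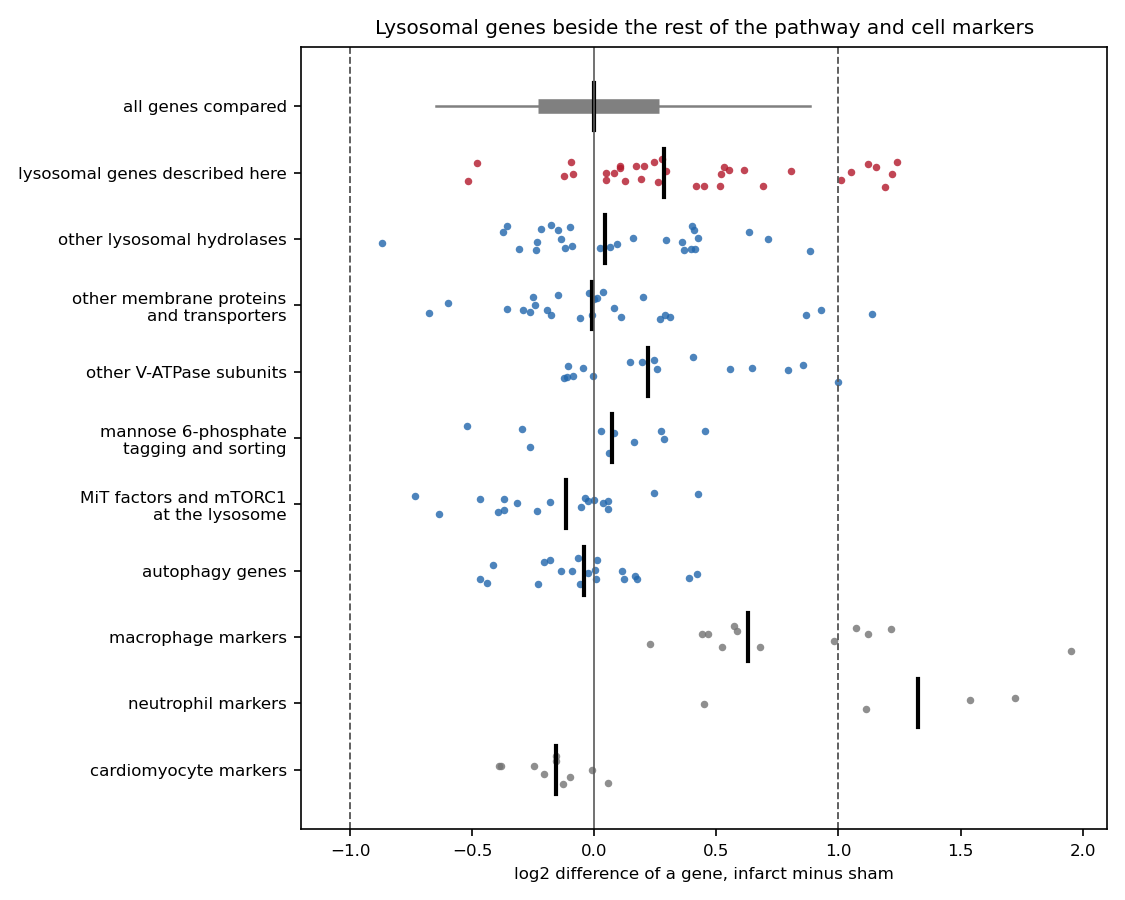
Log2 difference (infarct minus sham) of each gene compared, 1 point per gene, for the lysosomal genes described here (red), other lists of the pathway (blue) and cell markers (grey), with the median of each list as a black bar and points spread vertically for legibility. The top row gives all 11961 genes by their 5th to 95th (thin line) and 25th to 75th percentile (thick line); the median was 0.29 for the lysosomal genes, 0.04 for the other hydrolases and 0.63 for the macrophage markers.

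Markers of several cell types differed between the pools beside these genes. All 12 genes listed as macrophage markers lay above 0 (11 on the housekeeping scale), 4 were at least 2-fold higher, and their median was 0.63. The 4 were Msr1, Itgam, Fcgr1 and Csf2rb, and the lowest of the list were Csf1r, Mrc1 and Adgre1. Ptprc is shared by leukocytes in general, and Itgam, Csf2rb and Lyz2 are shared with neutrophils. Whether macrophages alone or other leukocytes too lie behind these values was not tested. The mean value of the 12 genes was 9.58 in sham and 10.40 in infarct hearts, and none was dimmer than the array median. The brightest were Lyz2 (12.71 and 13.23, 0.52), Csf1r (11.84 and 12.07, 0.23) and C1qb (11.30 and 11.98, 0.68). Of 9 neutrophil markers on the array 4 were compared, with a median of 1.33, of which S100a8 (1.72), S100a9 (1.54) and Csf3r (1.11) were the brightest. The fourth, Cxcr2 (5.91 and 6.36, 0.45), passed through the infarct pool alone, and the median without it was 1.54. The granule genes Mpo, Elane, Camp, Ltf and Ngp were dimmer than the array median in both pools. Of 6 osteoclast markers, Calcr, Oscar, Dcstamp and Ocstamp were likewise dim, while Acp5 differed by 0.89 and Mmp9 by 0.74, or 1.54 on its other bright probe set. The 10 cardiomyocyte markers were bright in both pools, averaging 14.47 in sham and 14.29 in infarct hearts, with a median difference of -0.16 (0.16 by the hybridisation controls). Their brightest genes Myh6 (-0.13), Myl2 (-0.10) and Actc1 (0.06) were read near the highest value on the arrays (14.9). Over all 27 bright probe sets of the 10 genes, 26 lay below 0 (13 by the hybridisation controls), with a median of -0.32 and the lowest, one of Ttn, at -0.85. Fibroblast markers had a median of 0.33 over 8 genes and endothelial markers one of 0.16 over 6, and both medians turn negative on the housekeeping scale. The brightest fibroblast genes were Dcn (-0.34), Col1a2 (0.60) and Postn (1.28), and the brightest endothelial genes Emcn (0.29), Kdr (-0.14) and Tek (-0.15). The part of these cell types in the differences of the lysosomal genes was not tested, and in pooled whole hearts more cells of a type and more mRNA per cell cannot be told apart. Cd68, Laptm5 and Ctss are members that are themselves known from leukocytes. Without these genes, 4 of 31 were at 2-fold (12.9%, beside 3.73% of all genes). Above 0 lay 26 (83.9%, beside 49.5% of all genes), and the median was 0.26. The genes left out were chosen after seeing the data. Others described above with macrophages or leukocytes, such as Grn and Ctsc, stayed in, so this count does not separate the cell types.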

How the data were processed

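Whole-heart RNA (ISOGEN, then RNeasy) was mixed within each group, and labelled cRNA was put on Affymetrix GeneChip mouse arrays. The authors deposited RMA values on the log2 scale, 1 per probe set. Which software ran RMA is not given in the sources used here. RMA gives both arrays nearly the same distribution, so that a difference in total mRNA cannot be seen. The array medians were 6.36 (sham) and 6.35 (infarct), and no scanner file was used here.

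Probe sets were named through the array's annotation: 34945 had 1 gene symbol, 932 several and 9160 none. The 35 genes on the array matched RefSeq by Entrez identifier, with 0 changed symbols. Members and lists were chosen with earlier results of these data known. All members are named. Of other pathway lists the text names the 3 genes with the largest differences, and of each marker list the 3 brightest. Further macrophage markers are named by their difference or because other leukocytes share them. Promoters are printed for the 3 highest members and the lowest. Motifs were chosen after the values were seen. The brightest probe set rule and the 2-fold threshold were first tested on the sham values with noise and known shifts added. The shifts were larger than the threshold, alike on all probe sets of a gene, and given to genes bright in sham. Differences near the threshold and disagreeing probe sets were thus not checked. The array-median, hybridisation, quantile and loess scalings were tested on the same values with a known offset added. The housekeeping and poly-A scalings, the other probe set choices and filters, and the motif search were not. With 1 array per group no test was possible, and the number of arrays limits precision.

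Alternatives were other scalings (array median, quantile, loess with span 0.4, housekeeping genes, 18 hybridisation and 24 poly-A probe sets), other choices among probe sets, and another brightness filter or threshold. Python 3.11.15 was used with numpy 2.4.6, pandas 2.3.3, matplotlib 3.10.9 and statsmodels 0.14.6.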

Additional observations from a re-analysis of the deposited data

How the results depend on the processing

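The count of lysosomal genes at 2-fold was 7 on the deposited scale, and the count of those above 0 was 29. Centring on the housekeeping genes gave 0 genes at 2-fold, 16 above 0 and a median of -0.090. With Gusb among the housekeeping genes these were 0, 14 and -0.17, beside a median of -0.46 for all genes. The shares of all genes at 2-fold and above 0 were not counted on that scale. The median was 0.60 after centring on the hybridisation controls. The number of probe sets at 2-fold was 9 as deposited, beside 2.23% of all named probe sets. It was 0 under both housekeeping scales and 17 on that of the hybridisation controls, where 8.04% of all genes were at 2-fold. No share over all named probe sets was counted on these other scales. Such changes of counts and medians follow from moving zero by the same amount for every gene, and which zero is right was not tested. The threshold of 1.4 left 0 genes. Leaving out Cd68, Laptm5 and Ctss, chosen after seeing the data, left 4 of 31, beside 3.73% of all genes. Laptm5 differed by -0.29 without probe sets that can bind several transcripts; the cause was not tested. Under array-median centring, quantile normalization and loess, 0 of 34 genes changed sign, and under the poly-A controls 2 did. The count at 2-fold was 7 under array-median centring and loess, beside 3.82% of all genes. It was 6 under quantile normalization, beside 3.52%, and 5 under the poly-A controls, beside 3.27%. Counts of genes at 2-fold lower were 0 under every alternative run. Averaging the probe sets of a gene left 5 of 32 genes compared at 2-fold, and taking that of the median difference left 5 of 30. No share over all genes was counted under these choices. Requiring brightness in both pools, also chosen after seeing the data, left 6 of 33 at 2-fold and 28 above 0. With 1 array per group no array could be left out. No paired analysis was possible because each group has 1 sample.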

Other observations

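Among inhibitors of cathepsins, Cstb, which encodes cystatin B of the cytosol, read 10.98 in sham and 11.92 in infarct hearts (0.94, the same on both of its bright probe sets). Cst3, the main secreted cystatin, read 13.24 and 13.29 (0.05), and Cst6 differed by -0.42. These were the only 3 of 7 inhibitors on the array bright enough to compare. Cst7 (4.68 and 5.28) and the stefin genes Csta1, Stfa2l1 and Stfa3 were dimmer than the array median in both pools.

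Autophagy genes, which deliver cytoplasm to lysosomes, had a median of -0.04 over 20 genes (0.28 after centring on the hybridisation controls), and 0 of them reached 2-fold. The kinase gene Ulk1 (-0.47), the membrane protein gene Atg9a (-0.44) and Atg7 (0.42), which encodes the activating enzyme of LC3 conjugation, had the largest differences, and the probe sets of Atg7 ran from -0.22 to 0.42.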
